A study of Arabidopsis thaliana with 6 samples.

Results

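Small RNA (sRNA) clusters lying wholly inside protein-coding genes on the chromosome arms of Arabidopsis were examined in 2 msh1 memory libraries and 4 wild type (WT) libraries. A cluster is a genomic interval in which the authors counted aligned sRNA reads. Of the 17131 clusters in the series, 2108 were retained because they were 201 to 3999 bases wide, started outside the pericentromeric blocks, had both ends within the span of 1 protein-coding gene and shared no base with a noncoding gene or pseudogene. A further 6 clusters lay within the spans of 2 protein-coding genes and were left out. All plants were Columbia-0, and rosette leaves were taken at bolting. The memory plants were first-generation, transgene-null progeny of a line silenced for MSH1 by RNAi, selected for altered growth, and according to the study they were full sibs from a single parent. The WT plants came from negative RNAi transformation events, so neither group carried the transgene, and a family difference cannot be told apart from memory. MSH1 is a plant-specific gene for a protein of plastids and mitochondria. No cluster of the tables lay within 1 kb of MSH1, so the tables held no value with which to check for sRNA from the silenced gene. They also held no leaf marker that would check the tissue label.

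sRNAs in plants are cut by DICER-LIKE enzymes from double-stranded RNA. The longer class, made with RNA polymerase IV at transposons and repeats, guides DNA methylation and is abundant at upstream regions and pseudogenes. Inside genes, sRNAs can come from a repeat left in an intron, from an inverted repeat, from a transcript cut under the direction of a microRNA (miRNA) and copied into double-stranded RNA, or from breakdown of the messenger itself. The tables carried neither strand nor read length, so these kinds could not be separated here.

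The sequences below show the kinds of gene-internal cluster met in the results. Each is read from the RefSeq TAIR10.1 genome on the coding strand, 5′ to 3′, with coding bases in capitals and intron bases in lower case. FIP2, which held one of the densest clusters, is shown over the first 300 bases of the cluster on the plus strand (chr5:22319453-22319752), where an exon of 135 coding bases lies between introns. The cluster in CKX3, a cytokinin oxidase gene, lay wholly in an intron and is shown over 300 bases on the minus strand (chr5:23046746-23047045). The cluster in MET1, the maintenance DNA methyltransferase gene, lay wholly in coding sequence and is shown because both memory values exceeded all WT values (chr5:19934122-19934421, plus strand). The cluster in GORK, a guard cell potassium channel gene, lay wholly in an intron and is shown because both memory values were below all WT values (chr5:14894346-14894645, minus strand).
FIP2: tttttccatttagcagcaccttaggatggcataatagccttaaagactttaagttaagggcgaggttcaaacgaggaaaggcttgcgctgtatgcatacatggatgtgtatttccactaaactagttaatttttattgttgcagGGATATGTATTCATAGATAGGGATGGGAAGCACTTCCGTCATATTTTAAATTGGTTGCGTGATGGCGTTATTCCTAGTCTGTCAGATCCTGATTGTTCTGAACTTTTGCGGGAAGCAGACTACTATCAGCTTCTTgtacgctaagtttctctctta
CKX3: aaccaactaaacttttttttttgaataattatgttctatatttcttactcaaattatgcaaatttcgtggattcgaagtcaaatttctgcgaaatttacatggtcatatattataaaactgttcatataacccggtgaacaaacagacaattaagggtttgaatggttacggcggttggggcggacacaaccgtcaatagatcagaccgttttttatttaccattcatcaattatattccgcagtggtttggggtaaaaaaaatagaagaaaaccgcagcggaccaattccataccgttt
MET1: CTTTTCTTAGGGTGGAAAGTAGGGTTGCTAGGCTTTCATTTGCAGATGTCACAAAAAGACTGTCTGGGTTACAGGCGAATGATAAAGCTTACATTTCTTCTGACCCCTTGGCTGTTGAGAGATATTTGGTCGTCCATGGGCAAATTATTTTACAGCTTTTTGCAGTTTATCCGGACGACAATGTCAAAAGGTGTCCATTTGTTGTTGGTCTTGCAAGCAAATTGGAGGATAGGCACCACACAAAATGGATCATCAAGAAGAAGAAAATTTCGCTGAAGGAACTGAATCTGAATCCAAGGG
GORK: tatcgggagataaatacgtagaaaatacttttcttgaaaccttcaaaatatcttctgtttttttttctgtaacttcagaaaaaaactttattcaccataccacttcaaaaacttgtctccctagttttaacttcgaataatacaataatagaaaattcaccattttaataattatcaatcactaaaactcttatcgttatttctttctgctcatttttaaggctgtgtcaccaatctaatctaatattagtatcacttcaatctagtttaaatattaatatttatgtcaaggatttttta

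The library totals ranged from 7966799 counts (memory replicate 2) to 18134284 counts (WT replicate 1), and values are given as CPM, the count divided by the library total after TMM correction and multiplied by 1000000. At these depths 3 counts stood for 0.202 to 0.491 CPM. Between 89.8% and 98.3% of the 2108 clusters had at least 3 counts in a library, and 1 had no count in any library. WT replicate 1 stood apart from the other libraries. Of 1593 gene-internal clusters with a mean of at least 1 CPM, 96 (6.03%) had a value in 1 library at least 8-fold above every other library, and in 90 of these that library was WT replicate 1. Memory replicate 2 accounted for 3, memory replicate 1 for 2 and WT replicate 4 for 1. The same description gave 7 of 563 clusters upstream of genes (1.24%) and 12 of 542 clusters at pseudogenes (2.21%). WT replicate 1 was the high library in all 7 upstream and in 8 of the 12 pseudogene clusters. Its excess was thus not confined to genes but was more frequent there (90 of 1593, against 7 of 563 and 8 of 542). The 90 clusters lay in 89 genes on all 5 chromosomes, had a median width of 624 bases, and held 160844 counts, which was 0.887% of that library. Of the 90, 84 were mixed clusters and 6 lay in coding sequence alone, with none in introns alone.

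GATA2, a transcription factor gene, held the most extreme of these clusters (chr2:18583453-18583885), with 3161, 0.0722, 0 and 0 CPM in WT replicates 1 to 4 and 0.156 and 0 CPM in the memory replicates. EXO70G1, an exocyst subunit gene, was similar (chr4:15284431-15287398), with 3928, 2.67, 2.79 and 1.32 CPM in WT and 1.72 and 18.2 CPM in memory. AT1G15130, which encodes a BRO1-like domain protein, had 364, 0.0722, 0.174 and 0.0882 CPM in WT and 0.156 and 0 CPM in memory (chr1:5207355-5207678). In these 3 genes a single WT plant carried nearly all of the signal. The reverse was seen in AT1G14780, a perforin domain gene, where WT replicate 1 alone was nearly empty (0.0674, 205, 154 and 124 CPM in WT, 179 and 170.4 CPM in memory). An F-box gene, MEE66, was also empty in WT replicate 1 (0, 28.1, 34.2 and 27.1 CPM in WT, 25.2 and 52.01 CPM in memory). Because such clusters sat in the control group, counts at an unadjusted p and of groups that did not overlap were also taken with each library left out in turn.

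**Figure D1:**
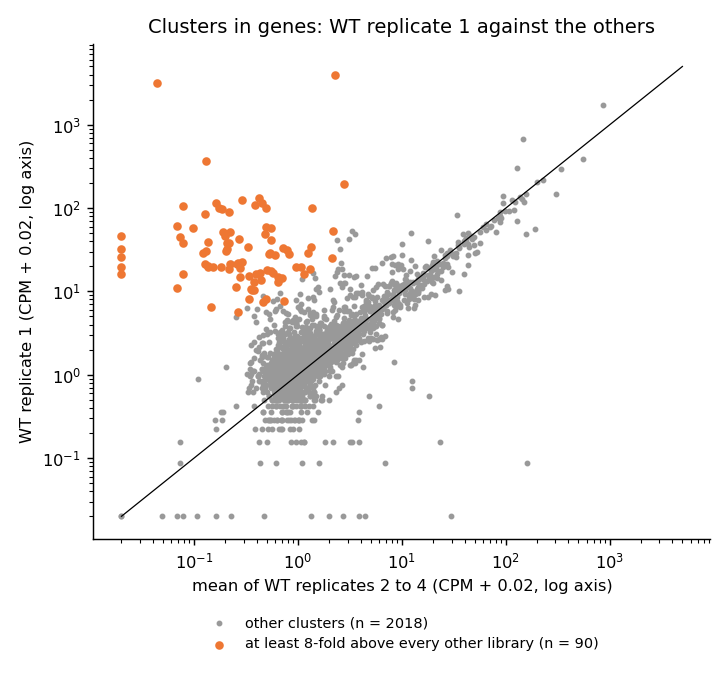
Each point is one of the 2108 gene-internal clusters, with its CPM in WT replicate 1 on the vertical axis and the mean CPM of WT replicates 2 to 4 on the horizontal axis (both log axes, 0.02 CPM added). The line marks equal values, and the 90 orange points are clusters in which WT replicate 1 was at least 8-fold above each other library.

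The clusters held more coding sequence, and less untranslated and intronic sequence, than their genes as a whole. They lay in 1784 genes, 7.25% of the 24621 protein-coding genes on the arms. Of all cluster bases, 64.8% were coding, 15.6% were in untranslated regions (UTRs) and 19.6% were intronic, whereas the whole host genes were 49.8% coding, 21.1% UTR and 29.1% intronic. The composition of all protein-coding genes on the arms was near that of the host genes (51.6%, 20.7% and 27.7%). Most clusters mixed these parts. Of the 2108, 1963 were mixed, 72 held intron bases only, 55 coding bases only and 18 UTR bases only. When genes were divided into 5 equal bins from the 5′ end, 13.99% of cluster midpoints fell in bin 1, 27.1% in bin 2, 33.2% in bin 3, 18.6% in bin 4 and 7.07% in bin 5. The requirement that both ends lie inside the gene keeps midpoints from its ends, so this order is in part set by how the clusters were chosen. Host genes were longer than arm genes as a whole, with a median of 2850 bases against 2108 bases for all arm genes, and a cluster covered a median of 32.5% of its gene. The same requirement leaves out clusters that reach past a gene end, where UTRs lie, and favours long genes. The lower UTR share and the longer host genes are thus also in part set by the choice.

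In base composition they resembled neither class of neighbouring cluster. Median GC content was 41.1%, against 27.3% in 606 arm clusters of the same width range lying within 1 kb upstream of a gene and 36.1% in 625 at pseudogenes. A median of 99.7% of their 24-base words occurred once in the genome, against 96.1% upstream and 54.7% at pseudogenes, so most of their counts rest on sequence that a read can be placed on uniquely. Only 60 clusters (2.85%) had under 50% unique words. Inverted repeats of 20 bases or more were found in 14 clusters (0.664%), compared with 2.81% upstream and 4.32% at pseudogenes. The 72 intron-only clusters differed from the rest, with a median GC content of 28.2% and 84.7% unique words. Of these 72, 3 (4.17%) held such a repeat. The longest lay in an intron of AT3G48770, an ATP/DNA binding protein gene, where the arms of 44 bases (chr3:18085625-18085668 and chr3:18085705-18085748, TAIR10.1) were separated by 36 bases. They are printed on the minus strand in capitals, which mark paired bases, to show that each arm is the reverse complement of the other.
AT3G48770 left arm: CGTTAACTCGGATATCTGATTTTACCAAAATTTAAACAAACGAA
AT3G48770 right arm: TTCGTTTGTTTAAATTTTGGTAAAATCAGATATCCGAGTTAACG
That cluster had 21.6, 24.8, 27.5 and 21.95 CPM in WT and 18.2 and 14.2 CPM in memory, and the memory and WT values did not overlap (log2 fold change -0.56 ± 0.18, edgeR quasi-likelihood adjusted p = 0.452).

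sRNA was sparse inside genes. The density, in CPM per kb of cluster, had a median of 1.91, 1.10, 1.36 and 1.48 in WT replicates 1 to 4 and 1.57 and 1.76 in memory. Upstream clusters had medians between 12.7 and 16.3 CPM per kb in the 6 libraries, and pseudogene clusters between 6.70 and 8.05. The gene-internal median was lower in 6 of 6 libraries in both comparisons, with a mean difference of -13.3 CPM per kb against upstream clusters and -5.81 against pseudogene clusters (exact two-sided sign-flip test over libraries, p = 0.03125 for each, the smallest that 6 libraries allow). Intron-only clusters did not follow the class to which they belong. Their median density was between 9.47 and 14.3 CPM per kb, near that of upstream clusters. Coding-only clusters had medians between 0.971 and 2.40, and UTR-only clusters between 5.85 and 9.005.

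**Figure D2:**
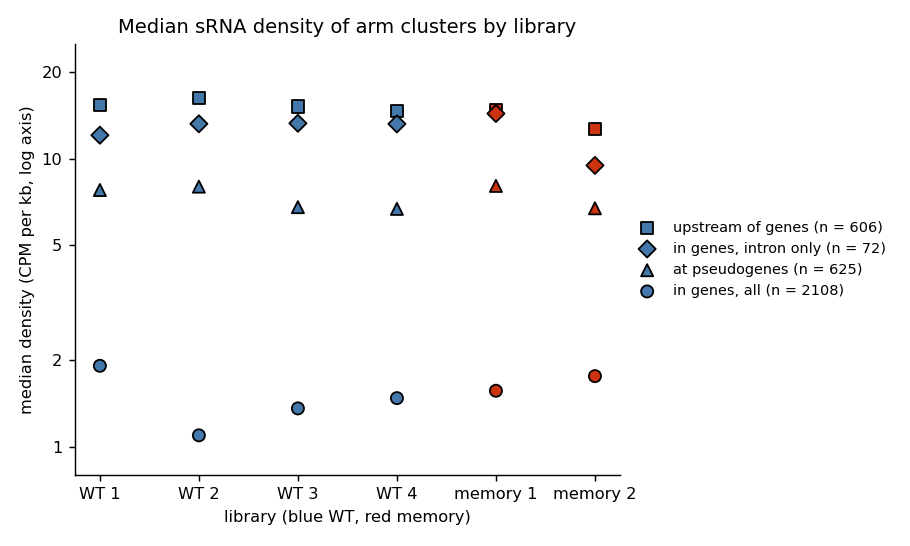
Median sRNA density in CPM per kb (log axis) for each library, with blue symbols for WT and red for memory. Gene-internal clusters as a whole (circles) lie between 1.10 and 1.91, below pseudogene clusters (triangles) and upstream clusters (squares) in every library, while the 72 intron-only clusters (diamonds) lie between 9.47 and 14.3.

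The signal was concentrated in few of them. In each library the 10 clusters with the most counts held between 25.8% and 45.7% of the counts of the class, and the 100 with the most held between 62.6% and 70.5%. Ordered by mean WT density and divided into 4 bins of 527 clusters, the densest bin (3.69 to 1825 CPM per kb) held 60 of the 72 intron-only clusters and had 38.9% intron and 44.7% coding bases. The sparsest bin (up to 0.876 CPM per kb) held 4 intron-only clusters and had 11.6% intron and 75.8% coding bases. Clusters of the sparsest bin were also wider, with a median of 1603 bases against 644 bases in the densest. The median GC content fell from 41.99% in the sparsest to 38.7% in the densest bin.

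AT5G50290, annotated as a wall-associated receptor kinase galacturonan-binding protein, held the gene-internal cluster with the most counts in 5 of 6 libraries (chr5:20463852-20464601). It had 1713, 581, 1025 and 989 CPM in WT and 1234 and 2298 CPM in memory, and the values of the groups overlapped. Of its 750 bases, 705 were UTR and 45 coding, and a stretch of 20 bases recurred within it as a reverse complement. FIP2, which encodes a potassium channel tetramerisation domain protein, had 149, 322, 449 and 136 CPM in WT and 974 and 759 CPM in memory (chr5:22319453-22319801). Both memory values were above every WT value, yet WT itself varied several-fold, and the difference did not pass (log2 fold change 1.71 ± 0.51, edgeR quasi-likelihood adjusted p = 0.438).

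CYP714A2, a cytochrome P450 gene of gibberellin inactivation, held a cluster of 502 intron and 146 UTR bases (chr5:8565784-8566431) with 293, 352, 332 and 330.0 CPM in WT and 289 and 266 CPM in memory. AT4G01340, a CHP-rich zinc finger protein gene, had a mainly intronic cluster (chr4:555289-555802) with 208, 202, 203 and 191 CPM in WT and 213 and 211 CPM in memory. Both were fairly even across the 6 libraries. Even so, both memory values lay below all WT values in CYP714A2 and above all WT values in AT4G01340. AT4G40020, a myosin heavy chain-related gene, was uneven instead, at 49.1, 38.4, 23.7 and 402 CPM in WT and 138 and 60.7 CPM in memory (chr4:18553308-18553665), with WT replicate 4 highest. IMB1, a bromodomain gene of seed germination, had 306, 104, 130.4 and 152 CPM in WT and 94.7 and 136 CPM in memory (chr2:14723233-14723716), highest in WT replicate 1. GATA2 and EXO70G1, described above, complete the 8 densest clusters by WT mean.

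Among the intron-only clusters, the most abundant lay in AT5G17165, an uncharacterized protein gene, where the cluster spanned 3606 bases (chr5:5643680-5647285) at 129, 162, 126 and 142 CPM in WT and 108 and 162 CPM in memory. AT2G03330, also uncharacterized, had 119, 126, 122 and 119 CPM in WT and 117 and 141 CPM in memory. The intron of CKX3 whose sequence is printed above had 91.7, 111, 89.3 and 91.9 CPM in WT and 77.4 and 83.6 CPM in memory. These levels differed little between plants, although both memory values in CKX3 lay below all WT values. PHT1;8, a phosphate transporter gene, had 59.6, 75.4, 63.5 and 71.9 CPM in WT and 48.4 and 51.5 CPM in memory, and only 43.7% of its 24-base words were unique. Both memory values of this transporter gene also lay below all WT values. In AT5G17165 and AT2G03330 the unique share was 40.6% and 22.4%, so their counts depend on how reads with several matches were placed.

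The question of the design was whether sRNA differed between memory and WT plants. No gene-internal cluster passed the edgeR quasi-likelihood test at an adjusted p below 0.05, out of 1846 that had enough counts to be tested, and the smallest adjusted p was 0.291. In the whole series 1 of 15659 tested clusters passed (0.00639%). DESeq2 called 15 of the 1078 gene-internal clusters to which it gave an adjusted p, 10 higher and 5 lower in memory, against 2.09% of all clusters, and the likelihood ratio test of edgeR called 7 of 1846, against 0.875%. In whole leaves, fewer cells of a type and less sRNA per cell cannot be told apart. The remaining statements on direction therefore describe tendencies at an unadjusted p below 0.05. By that measure 130 gene-internal clusters (7.04%) were higher in memory, where 4.92% of all tested clusters were, and 34 (1.84%) were lower, where 5.56% of all were. Higher clusters thus made up 79.3% of the 164, against 46.9% over all clusters. The libraries are taken as biological replicates from single plants, and genes are not replicates, so no p-value is attached to these shares.

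This lean was read from the edgeR quasi-likelihood test, and it depended on the test and on scale. DESeq2 gave 95 higher and 37 lower of 2006 gene-internal clusters at an unadjusted p below 0.05. These were 4.74% and 1.84%, against 5.09% and 5.203% of all. The higher share was thus not above that of all clusters, while the lower share stayed below it. In edgeR the higher share was 6.72% by the likelihood ratio test (against 3.48%) and 7.69% by quasi-likelihood with RLE scaling (against 5.25%). With library size alone in place of TMM, 56 gene-internal clusters were higher and 39 lower (58.9% higher), where 1.52% of all tested clusters were higher and 5.09% lower. The median log2 fold change was 0.19 over gene-internal clusters and -0.03 over all clusters under TMM, and 0.00 and -0.23 with library size alone. The gap between the medians was 0.21 and 0.23, while the absolute direction of gene-internal clusters did not hold. A change of scale moves all clusters by nearly the same amount, so the gap could hardly change and its persistence is no support. Over the 16 alternative fits the gap ranged from 0.13 to 0.32. Without memory replicate 2, 46 were higher and 32 lower (2.23% and 1.55%, against 2.39% and 3.48% of all), and without WT replicate 2, 79 were higher and 25 lower. The shares without WT replicate 2 were 4.42% and 1.40%, against 3.49% and 3.91% of all. Without WT replicate 1 the counts were 163 and 33 (9.27% and 1.88%, against 5.64% and 6.50% of all).

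Separation of the groups gave a similar picture, but it was read from the same TMM-scaled values and is no separate support. All memory values exceeded all WT values in 313 of the 1846 tested clusters (17.0%), against 10.1% of all tested clusters, and lay below them in 105 (5.69%), against 12%. Without WT replicate 1, 497 lay above (26.9%, against 15.6% of all) and 143 below (7.75%, against 17.5%). The gap was smaller without WT replicate 2, with 17.7% above (against 12.2% of all) and 8.88% below (against 14.6%). Groups separate more easily with fewer libraries, so these shares can only be read against all clusters of the same fit. At an unadjusted p below 0.05, upstream clusters leaned the other way, while pseudogene clusters leaned the same way as gene-internal clusters. Upstream clusters had 3.42% higher and 10.3% lower of 584 tested, and pseudogene clusters had 9.48% higher and 4.47% lower of 559. With any 1 library left out, 13 to 31 upstream clusters were higher and 42 to 89 lower, and 30 to 69 pseudogene clusters were higher and 15 to 53 lower. Intron-only clusters had 2 higher and 8 lower of 70 tested, with a median log2 fold change of -0.05, but 3 higher and 3 lower without WT replicate 2 and 4 higher and 3 lower without memory replicate 2. Depth differed between groups too, since the shallowest library was a memory library, and its part in the lean was not tested.

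**Figure D3:**
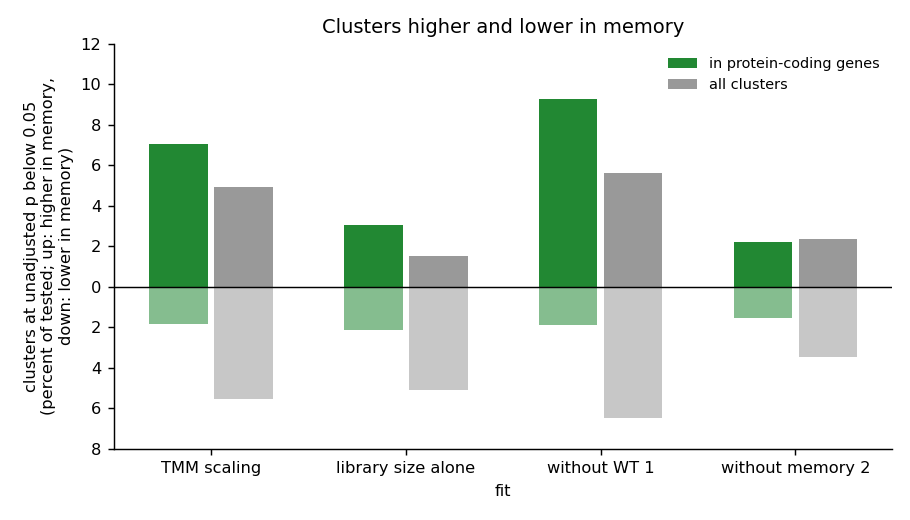
Bars show the percentage of tested clusters at an unadjusted p below 0.05 in the edgeR quasi-likelihood test, upwards for higher in memory and downwards for lower, for gene-internal clusters (green) and all clusters (grey) under 4 fits. Under TMM scaling 7.04% of gene-internal clusters were higher and 1.84% lower, and without memory replicate 2 the shares were 2.23% and 1.55%.

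The clusters described next had the smallest unadjusted p among those higher in memory with no overlap between groups. CARAB-AK-LYS, an aspartate kinase gene of lysine synthesis, held a mainly UTR cluster (chr5:4535389-4535753) with 7.55, 5.49, 4.79 and 5.99 CPM in WT and 13.4 and 23.4 CPM in memory. Its log2 fold change was 1.62 ± 0.30 (edgeR quasi-likelihood adjusted p = 0.303). GUN5, the H subunit of the magnesium chelatase that directs porphyrins to chlorophyll, had 4.92, 5.77, 7.32 and 11.5 CPM in WT and 18.6 and 27.6 CPM in memory (chr5:4390676-4392268). WT plants averaged 7.39 ± 2.94 CPM (SD, n = 4) and memory plants 23.1 ± 6.39 CPM (SD, n = 2), a log2 fold change of 1.64 ± 0.37. PnsL4, a lumenal subunit of the chloroplast NDH complex, had 8.70, 13.9, 12.8 and 11.99 CPM in WT and 22.04 and 25.02 CPM in memory (chr4:18426500-18427334, log2 fold change 0.99 ± 0.22). In these 3 genes DESeq2 gave adjusted p values of 0.00218, 0.0134 and 0.0301.

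MET1, whose product copies CG methylation onto newly made DNA, had 2.70, 0.577, 1.83 and 1.15 CPM in WT and 5.70 and 26.2 CPM in memory over the coding cluster printed above. The log2 fold change was 3.33 ± 0.75 (edgeR quasi-likelihood adjusted p = 0.364, DESeq2 adjusted p = 0.00356). Both memory values were the highest of the 6, but they differed from each other more than the WT values did, and memory replicate 2 gave most of the increase. AT1G13930, annotated as an oleosin-B3-like protein, had 15.6, 16.1, 20.4 and 19.8 CPM in WT and 33.9 and 32.2 CPM in memory, a tight pattern in both groups (log2 fold change 0.88 ± 0.17). AT5G24220, a class 3 lipase-related gene, had 37.6, 36.9, 60.5 and 70.9 CPM in WT and 111 and 167 CPM in memory (log2 fold change 1.44 ± 0.33). ABCC14, an ABC transporter gene, had 2.16, 2.45, 2.70 and 2.82 CPM in WT and 6.02 and 5.72 CPM in memory, and APM1, an aminopeptidase gene, had 0.674, 0.433, 0.697 and 0.705 CPM in WT and 1.72 and 2.45 CPM in memory. APM1 counts were small, with 6 to 10 counts in each WT library. For these 8 clusters the edgeR quasi-likelihood adjusted p lay between 0.303 and 0.364.

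The corresponding clusters lower in memory follow. AT2G30766, an uncharacterized protein gene, had the smallest p of all gene-internal clusters (chr2:13108026-13109518), with 13.4, 12.99, 14.4 and 14.9 CPM in WT and 2.89 and 5.40 CPM in memory. WT averaged 13.9 ± 0.884 CPM (SD, n = 4), memory 4.14 ± 1.77 CPM (SD, n = 2), and the log2 fold change was -1.76 ± 0.30 (edgeR quasi-likelihood adjusted p = 0.291, DESeq2 adjusted p = 4.63e-05). FRO3, a ferric reductase of mitochondria, had 2.97, 1.73, 3.57 and 2.997 CPM in WT and 0.469 and 0.654 CPM in memory (chr1:8150422-8151952, log2 fold change -2.34 ± 0.47, DESeq2 adjusted p = 0.0429). BTS, a ubiquitin ligase that restrains the iron deficiency response, had 11.6, 5.49, 6.62 and 8.38 CPM in WT and 1.95 and 2.94 CPM in memory (chr3:6274831-6278139, log2 fold change -1.72 ± 0.42, DESeq2 adjusted p = 0.0284). WT replicate 1 was highest in BTS, yet all 4 WT values stayed above both memory values.

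GORK, the outward potassium channel of guard cells, had 9.31, 9.74, 11.1 and 11.1 CPM in WT and 4.92 and 2.45 CPM in memory in the intron printed above (log2 fold change -1.46 ± 0.33, DESeq2 adjusted p = 0.0115). A second intronic cluster, in the RING/U-box gene AT2G15260, had 6.74, 9.67, 9.06 and 8.73 CPM in WT and 4.84 and 2.45 CPM in memory. AT5G05250, an uncharacterized protein gene, had 15.6, 10.1, 10.4 and 12.3 CPM in WT and 3.59 and 6.71 CPM in memory, and AT1G61320, a leucine-rich repeat gene, had 7.89, 15.4, 14.3 and 13.3 CPM in WT and 5.001 and 5.56 CPM in memory. In AT2G18690, an uncharacterized protein gene, the counts were small, with 2.50, 0.938, 1.57 and 1.23 CPM in WT and 0.391 and 0.327 CPM in memory. The edgeR quasi-likelihood adjusted p of these 8 clusters lay between 0.291 and 0.438. All 16 clusters kept their direction in each alternative fit that could test them. Since they were chosen for groups that did not overlap, fits with fewer libraries could hardly reverse them, and this is no support. Besides 11 of these 16, DESeq2 also called FIP2, SUC5, a sucrose transporter gene, AT1G56300, a DnaJ domain gene, and AT3G13882, a ribosomal protein L34 gene, and the last 3 were named after their values were seen. SUC5 was uneven within WT (21.6, 18.7, 0.261 and 8.38 CPM, against 0.860 and 0.327 CPM in memory), and AT3G13882 rested on memory replicate 2 (0.742, 0.938, 1.31 and 1.15 CPM in WT, 1.48 and 15.4 CPM in memory).

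**Figure D4:**
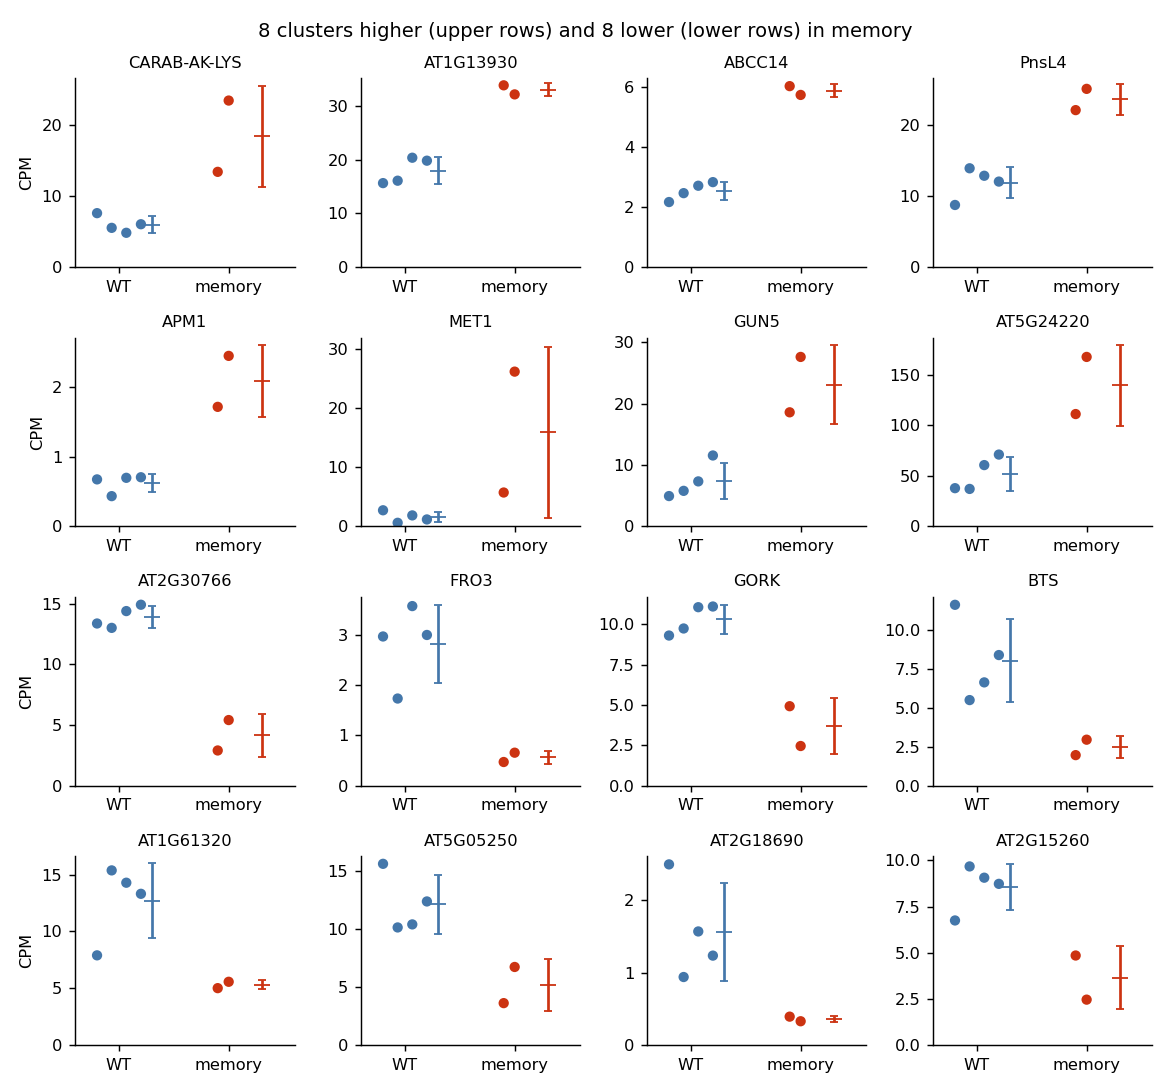
CPM in each of the 6 libraries (WT blue, memory red; linear axes from 0) for the 8 clusters higher and the 8 lower in memory with the smallest unadjusted p, with the mean and SD beside the points (n = 4 and n = 2). The groups do not overlap in any panel, which was a condition of the choice, and none of the 16 passed at an adjusted p below 0.05 in the edgeR quasi-likelihood test.

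Lists drawn up after these values were seen put the named genes among others of their pathway, and they support nothing on their own. For comparison, 7.04% of all tested gene-internal clusters were higher and 1.84% lower at an unadjusted p below 0.05, and 62.5% had a log2 fold change above 0, while over all tested clusters of the series these shares were 4.92%, 5.56% and 47.7%. Of 22 iron homeostasis genes, 5 held a cluster, and 3 of these were lower at an unadjusted p below 0.05 (FRO3, BTS and ZIF1, a vacuolar zinc and nicotianamine transporter) with none higher (2 lower without memory replicate 2). ZIF1 had 2.63, 1.52, 1.66 and 1.68 CPM in WT and 0.781 and 0.491 CPM in memory. FRO6, a plasma membrane ferric reductase of leaves, had a log2 fold change of -0.07 ± 0.42, and NRAMP4, which releases iron from the vacuole, -0.24 ± 0.44. Of 20 chlorophyll metabolism genes, 6 held 7 clusters, all with a log2 fold change above 0 (median 0.90), and 4 of the 7 were higher at an unadjusted p below 0.05. These 4 were in HEMA1, the glutamyl-tRNA reductase that begins tetrapyrrole synthesis, in NYC1, a chlorophyll b reductase, in GUN5 and in POR C, a protochlorophyllide oxidoreductase. HEMA1 had 1.28, 0.505, 1.39 and 1.41 CPM in WT and 4.38 and 3.11 CPM in memory, and NYC1 had 0.944, 0.289, 0.523 and 0.970 CPM in WT and 2.58 and 3.60 CPM in memory. With library size alone all 7 stayed above 0 and 3 were higher at that p, and 2 were higher without memory replicate 1. Over all tested clusters the median log2 fold change was -0.03.

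Of 15 starch breakdown genes, 4 held 22 clusters, 20 of them above 0 (18 with library size alone), and 3 were higher at an unadjusted p below 0.05 (none with library size alone, 1 without memory replicate 2), where 62.5% and 7.04% of all gene-internal clusters were. Both genes with the most clusters belonged to this list. Among host genes, 1532 held 1 cluster and 252 held several, of which 37 held 3 and 14 held 4 or more. SEX1, the glucan water dikinase that phosphorylates starch for its breakdown, held the most, 8 clusters, followed by PHS2, a cytosolic glucan phosphorylase, with 6 and ACO1, an aconitase, with 5. In SEX1 all 8 log2 fold changes were above 0, from 0.10 to 0.98, except that the lowest was -0.05 with library size alone. Its most abundant cluster (chr1:3583623-3584668) had 5.13, 4.55, 4.88 and 7.41 CPM in WT and 10.5 and 5.72 CPM in memory, and its groups overlapped. In ACO1 all 5 were above 0, from 0.33 to 0.85. PHS2 ranged from -1.53 to 1.17, and its low value came from a cluster high in WT replicate 1 alone (14.2, 0.794, 0.871 and 1.59 CPM in WT, 0.860 and 2.29 CPM in memory). No cluster in these 3 genes had an adjusted p below 0.452 in the edgeR quasi-likelihood test.

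Clusters of 1 gene resembled each other in direction. Across 273 pairs of consecutive tested clusters in the same gene, the log2 fold changes had a Spearman correlation of 0.27, and 64.5% shared a sign. Across 1568 pairs of consecutive clusters in different genes these values were -0.04 and 50.9%. The pairs share libraries and, within a gene, a transcript, and clusters are not independent replicates.

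**Figure D5:**
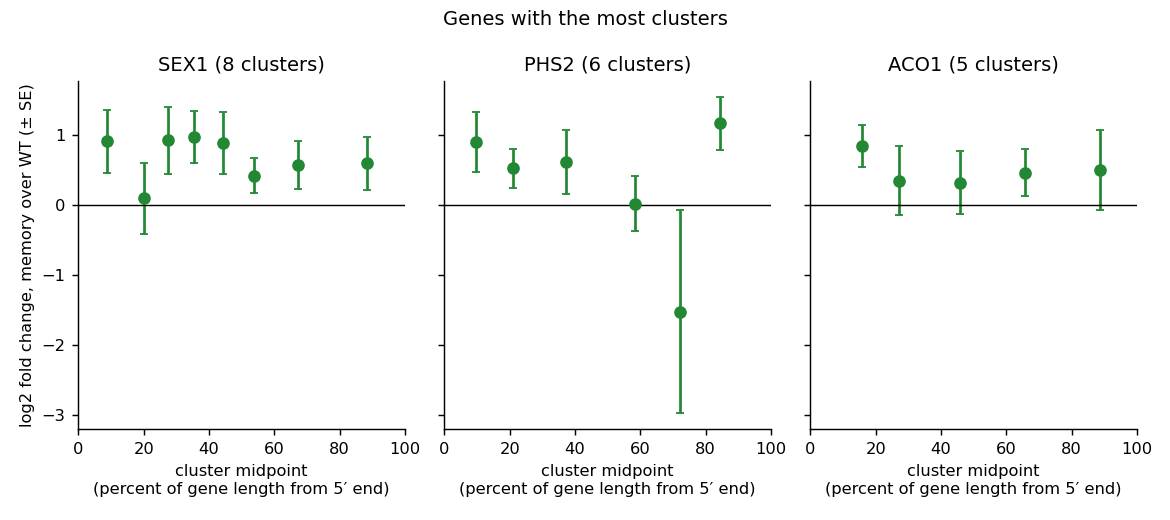
Log2 fold change of memory over WT with its SE (vertical axis) for each cluster of SEX1, PHS2 and ACO1, against the cluster midpoint as a percentage of gene length from the 5′ end. All 8 SEX1 and all 5 ACO1 values lie above 0 (7 and 5 with library size alone), and the PHS2 cluster below 0 is the one high in WT replicate 1.

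The RNA silencing and DNA methylation list had 35 genes, of which 4 held a cluster. Apart from MET1, these were SUVH9, which recruits RNA polymerase V to methylated DNA, IBM1, a histone demethylase that keeps non-CG methylation out of genes, and KTF1, an adaptor of RNA-directed DNA methylation. IBM1 had 1.15, 1.37, 1.31 and 0.882 CPM in WT and 2.11 and 1.31 CPM in memory, in intron and UTR sequence. KTF1 was high in WT replicate 1 only (11.3, 0.433, 0.0871 and 0.176 CPM in WT, 0.703 and 0.327 CPM in memory) and was not tested. Of the 3 tested, 1 (MET1) was higher at an unadjusted p below 0.05 (none without memory replicate 2) and none was lower, and the median log2 fold change was 0.97 against -0.03 over all clusters. With library size alone this median was 0.83.

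Of 24 circadian clock and photoperiod genes, 5 held 6 clusters, and none was at an unadjusted p below 0.05 in either direction. GI, a clock protein that links light to flowering, held a pair of clusters. The upstream one had 1.48, 1.23, 2.27 and 2.03 CPM in WT and 3.28 and 1.47 CPM in memory, and the downstream one 0.742, 1.88, 2.53 and 3.53 CPM in WT and 2.97 and 3.11 CPM in memory. In both, the WT and memory values overlapped. PCL1, the evening complex transcription factor also called LUX, had 2.70, 1.30, 2.18 and 2.38 CPM in WT and 2.27 and 0.818 CPM in memory. ELF4, a further evening complex member, and the photoreceptors CRY2 and PHYB had log2 fold changes of 0.44 ± 0.39, 0.25 ± 0.57 and 0.22 ± 0.36. The 6 clusters had means between 1.31 and 2.46 CPM, and their single libraries held at most 42 counts.

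miRNA targets were the most represented of the 3 lists, with 12 of 51 genes holding 13 clusters, all tested, none at an unadjusted p below 0.05 and a median log2 fold change of 0.19 (-0.08 with library size alone, -0.05 without memory replicate 2). ARF4, an auxin response factor targeted by trans-acting siRNA, had the highest level (chr5:24309098-24309782), at 38.7, 29.7, 34.3 and 38.7 CPM in WT and 34.4 and 39.3 CPM in memory, even across the plants. ARF2, of the same family, had 19.2, 5.49, 4.01 and 6.79 CPM in WT and 6.80 and 9.16 CPM in memory, with WT replicate 1 apart. PHO2, a phosphate starvation gene targeted by miR399, had 2.56, 1.73, 3.49 and 2.12 CPM in WT and 3.59 and 3.11 CPM in memory over its larger cluster. TCP4, a leaf growth factor targeted by miR319, RAP2.7, a floral repressor targeted by miR172, and ARF17, targeted by miR160, had log2 fold changes of 0.19 ± 0.37, 0.24 ± 0.39 and 2.27 ± 1.21.

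Each cluster was also searched for sites complementary to 349 mature miRNAs of the RefSeq annotation, with at most 3 mismatches and no gap, on the sense strand and, for comparison, on the antisense strand, which offers no target in the messenger. Leaving out 3 miRNAs of simple repeats, 42 clusters held a site on the sense strand and 26 on the antisense strand. With at most 2 mismatches the counts were 17 and 3. The sites below belong to genes described in this paragraph. For each miRNA the seed (bases 2 to 8) is in capitals, and in each site, written 5′ to 3′ on the coding strand, capitals mark bases outside Watson-Crick pairs, so that a G:U pair is counted as a mismatch.
miR161.1: tGAAAGTGactacatcggggt
RPF2 site: acccTgatgtaTtcactttca
AT1G64583 site: acccTgatgtTgtcactttca
miR161.2: tCAATGCAttgaaagtgacta
AT1G63080 site: tagtcactttcaaCTcattga
RPF3 site: tagtcactttcaGCgcattga
AT1G63330 site: tagtcacGttcaatgcattga
miR394a: tTGGCATTctgtccacctcc
LCR site: ggaggtTgacagaatgccaa
miR156j: tGACAGAAgagagagagcac
SPL10 site: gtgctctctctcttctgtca
Both miR161 sequences come from 1 precursor on chromosome 1 and overlap by 12 bases, and their sites lay in genes of pentatricopeptide repeat (PPR) type, whose products bind organelle RNA. In all, 8 clusters in 8 genes held a miR161 site, with a median density of 13.8 CPM per kb, where all gene-internal clusters had 1.74. AT1G63080 was the most abundant (chr1:23388222-23390413), with 385, 574, 560.1 and 540.2 CPM in WT and 272 and 482 CPM in memory, groups that overlapped. RPF2, a restorer-like processing factor of mitochondrial RNA, had 70.01, 113, 111 and 164 CPM in WT and 73.8 and 14.9 CPM in memory, where the replicates of memory differed widely. RPF3, a related factor, had 44.3, 71.03, 33.02 and 44.8 CPM in WT and 30.9 and 45.6 CPM in memory. AT1G64583 had 10.4, 7.43, 8.71 and 8.99 CPM in WT and 10.002 and 51.5 CPM in memory and was the only one of the 8 at an unadjusted p below 0.05 (log2 fold change 1.78 ± 0.56, edgeR quasi-likelihood adjusted p = 0.452). These genes resemble each other, with unique 24-base words at 56.8% in AT1G63080, 47.6% in RPF2, 31.9% in RPF3 and 7.22% in AT1G63330, so reads could have been exchanged between them. LCR, an F-box gene of leaf shape regulated by miR394, had 12.5, 7.07, 9.93 and 9.26 CPM in WT and 22.3 and 15.4 CPM in memory (log2 fold change 0.96 ± 0.28, adjusted p = 0.438). SPL10, a squamosa promoter-binding factor of the miR156 ageing pathway, matched miR156j with 0 mismatches, but held counts in WT replicates 1 and 2 and almost none elsewhere (1.42, 2.02, 0 and 0.0882 CPM in WT, 0 and 0 CPM in memory). A match is a description of the letters, and cleavage was not measured.

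Gene families were represented unequally, as judged from words of the RefSeq product. Ribosomal protein genes held 66 clusters in 57 of 344 genes (16.6%), photosynthesis genes 13 in 13 of 77 (16.9%) and NLR immune receptor genes 27 in 23 of 159 (14.5%), where 7.25% of all arm genes held one. F-box genes (28 of 653, 4.29%), genes with PPR in the product name (17 of 315, 5.40%) and genes annotated as hypothetical (73 of 2994, 2.44%) were represented less. PPR-type genes with another product name are not in that count. The family counts cover the whole genome, the pericentromeres included. The densest family by median was F-box, at 9.60 CPM per kb, followed by photosynthesis at 6.95. Ribosomal protein clusters had 7 of 57 tested higher at an unadjusted p below 0.05 and none lower (3 and none with library size alone or without memory replicate 2), where 7.04% and 1.84% of all gene-internal clusters and 4.92% and 5.56% of all clusters were. Their median log2 fold change of 0.21 (0.05 with library size alone) was near the 0.19 of all gene-internal clusters. In photosynthesis genes 2 of 11 were higher (none without memory replicate 2, 4 without WT replicate 4) and none lower, with a median of 0.72 (0.48 with library size alone), and 10 of the 11 were above 0, as were 62.5% of all gene-internal clusters.

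CAB2, a light-harvesting chlorophyll-binding protein gene, had the highest level of the photosynthesis genes (chr1:10474680-10475944), at 16.1, 23.4, 46.9 and 49.4 CPM in WT and 75.5 and 128 CPM in memory. Both memory values were above all WT values (log2 fold change 1.59 ± 0.49, edgeR quasi-likelihood adjusted p = 0.442), and 60.5% of its 24-base words were unique, since near-identical copies stand beside it. PSAE-1, a photosystem I subunit gene, had 11.8, 7.51, 10.5 and 12.2 CPM in WT and 15.3 and 35.98 CPM in memory. NLR genes had a median of -0.29 (-0.52 with library size alone, 0.05 without memory replicate 2), 11 of 25 above 0 and 1 lower at an unadjusted p below 0.05. PPR genes by product name had a median of -0.45 (-0.75 with library size alone, 0.09 without WT replicate 1) and 4 of 15 above 0, with none at that p in either direction. This list does not hold AT1G64583, a miR161 gene annotated as a tetratricopeptide repeat protein, which was higher at that p (log2 fold change 1.78). Receptor kinase genes (39 tested, 1 higher, median 0.03, or -0.07 with library size alone) and cytochrome P450 genes (26 tested, 3 higher and 2 lower, median 0.30, or none higher, 1 lower and 0.15 with library size alone, and none higher without memory replicate 2) lay nearer the median of all gene-internal clusters.

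As a share of the library, gene-internal clusters took 2.01%, 1.38%, 1.40% and 1.37% of the counts in WT replicates 1 to 4 and 1.42% and 1.30% in memory. Memory plants averaged 1.36% ± 0.0873 (SD, n = 2) and WT plants 1.54% ± 0.315 (SD, n = 4), and the difference of -0.181 percentage points was smaller than the WT spread (exact two-sided permutation test, p = 0.533, where 0.133 is the smallest possible for 2 against 4). Without the single-library clusters described above, an alternative chosen after seeing the data, the share was 1.12% in WT replicate 1 and the difference turned to 0.0196 points (exact permutation test, p = 0.933). Intron-only clusters took 0.103% ± 0.0192 in memory and 0.121% ± 0.0258 in WT (p = 0.4), and coding-only clusters 0.0499% ± 0.0213 and 0.0396% ± 0.00793 (p = 0.533), by the same exact permutation test. The log2 ratio of gene-internal to upstream counts was 0.028 ± 0.237 in memory and -0.089 ± 0.410 in WT (exact permutation test, p = 0.8). In coding-only clusters memory replicate 2 was highest, at 0.0650%. RNEE/G, a chloroplast ribonuclease gene in this class, had 20.7, 3.97, 18.4 and 6.70 CPM in WT and 11.3 and 324 CPM in memory. Without single-library clusters, RNEE/G among them, memory replicate 2 was still highest, at 0.0400% against 0.0343% in WT replicate 4.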

How the data were processed

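sRNA from rosette leaves was extracted with a NucleoSpin miRNA kit, made into TruSeq Small RNA libraries and sequenced as single 50-base reads. Each library had 1 deposited table of raw counts, whole numbers of reads in each cluster, without strand or read length. The authors aligned each library to TAIR10 with ShortStack and merged the alignments with SAMtools, and how clusters were defined and reads counted is not given in the sources used here. ShortStack places reads with several matches by the uniquely placed reads nearby, so counts in repeated sequence depend on that placement.

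Groups and replicate numbers came from the sample titles, and no library and no value column (0) was left out. Genes, sequences and mature miRNAs came from RefSeq TAIR10.1, whose nuclear chromosomes match the tables. Counts of all clusters were fitted in edgeR 4.0.16 under R 4.3.3 (quasi-likelihood, TMM, filterByExpr defaults), with group as the only term and Benjamini-Hochberg adjustment over 15659 clusters. DESeq2 1.42.0 was an alternative. SE values are approximate (absolute log2 fold change over root F). In simulated counts with the real means and library sizes, 37 of 100 clusters changed 4-fold and 93 of 100 changed 16-fold were recovered, with 3 false calls. Changes were placed only in clusters above a minimum mean count, so recovery of sparser clusters was not simulated. The simulated spread followed the trend with mean count alone. Spread particular to a cluster and values high in 1 library were left out, so recovery under the real spread was not simulated either. Shares and densities were compared with exact permutation and sign-flip tests, whose two-sided p is 2 times the smaller tail. Library totals are given with the results. Floors of 3 counts cover counting error only, since PCR reads without molecular identifiers are not independent molecules.

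Named clusters were the 8 densest in WT, the 8 higher and 8 lower in memory with the smallest p among groups that did not overlap and a mean of at least 1 CPM, up to 6 per gene list, the 3 genes with the most clusters, the 4 most variable in WT (log2 range with 0.5 CPM added) and 5 with the best miRNA complementarity. MEE66, the intron-only, miR161, family and added-list examples fall outside this rule. The clusters and lists were chosen with earlier results of these data known. Other scalings, filters, tests, left-out libraries, a replicate block and stricter cluster rules were tried. Replicate numbers name different plants, and libraries sharing a number did not deviate together.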

Additional observations from a re-analysis of the deposited data

Results flagged for a closer look

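In 9 of 68 values examined across the 4 WT libraries, 1 library lay far from the other 3, by a test that chance meets in about 1 in 20 groups of values not chosen for it. These values were in part so chosen, since GATA2, EXO70G1 and AT1G15130 were named as the clusters most variable in WT, so the 9 cannot be read against that rate. WT replicate 1 was the distant library for the share of counts in gene-internal clusters, at 2.01% against a mean of 1.38% in the others, and for the coding-only share, at 0.0514% against 0.0357%. In the same way it stood at 3161 CPM in GATA2 (mean of the others 0.0241), at 3928 CPM in EXO70G1 (2.26), at 363.5 CPM in AT1G15130 (0.112), at 11.3 CPM in KTF1 (0.232) and at 14.2 CPM in the second PHS2 cluster (1.08). WT replicate 4 was distant in AT4G40020, at 402 CPM against 37.1, and WT replicate 2 in APM1, at 0.433 CPM against 0.692. The part of library preparation, of RNA quality and of the single plant in these values was not tested.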

How the results depend on the processing

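Of 61 named clusters tested, 27 of 951 alternative values reversed and 16 passed where the first did not, all 16 in DESeq2 or the likelihood ratio test, while 908 kept their direction and side of the threshold. The count called at an adjusted p below 0.05 was 15 in DESeq2 and 7 in the likelihood ratio test, and 0 in every other fit. At an unadjusted p below 0.05, library size alone gave 56 higher (3.03%, against 1.52% of all tested clusters). DESeq2 gave 95 higher (4.74%, against 5.09% of all) and 37 lower (1.84%, against 5.203%). A minimum of 10 counts in every library gave 16 lower (1.91%, against 5.88% of all). Leaving out 1 library at a time gave 46 to 173 higher and 21 to 62 lower, with the fewest higher without memory replicate 2 and the most lower without memory replicate 1. With a WT library left out, 4.42% to 9.27% were higher, against 3.42% to 5.64% of all. The lower shares were 1.15% to 1.88%, against 3.82% to 6.50%. The replicate block over the libraries numbered 1 and 2 gave 34 higher and 17 lower. These were 1.95% and 0.976%, against 1.66% and 1.92% of all, so the higher share was near that of all clusters. The same 4 libraries without the block gave 67 and 19 (3.85% and 1.09%, against 2.26% and 2.50% of all), and neither fit made a call.

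With 5 libraries the density differences kept their direction but could not go below p = 0.0625 in the exact test (-13.8 to -12.9 CPM per kb against upstream clusters, -5.98 to -5.59 against pseudogene clusters). Without single-library clusters the difference in share reversed to 0.0196 points. Leave-one-out differences ran from -0.00476 to 0.0254 points for the coding-only share and from -0.0508 to 0.316 for the log2 ratio to upstream counts, both reversed without memory replicate 2.

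With library size alone the log2 fold change reversed in AT4G01340 (-0.14), ARF4 (-0.16), a SEX1 cluster (-0.046) and a PHS2 cluster (-0.12). AT4G40020 reversed to 1.07 in the replicate block and to 1.18 in the same libraries without it. Leaving out 1 library reversed AT4G40020 (-1.07 to 1.42), EXO70G1 (-9.16 to 2.11), ARF4 (-0.045 to 0.16), ARF2 (-0.40 to 0.55), PCL1 (-1.36 to 0.079), ELF4 (-0.030 to 0.85), GI (-0.23 to 0.90), CRY2 (-0.28 to 0.58), PHYB (-0.11 to 0.46), AGL16 (-0.65 to 0.79), and 1 or 2 clusters each of ACO1 (-0.53 to 0.91), SEX1 (-0.83 to 0.57) and PHS2 (-2.35 to 0.48 and -0.66 to 0.46). Parentheses give the lowest and highest value. Beyond fewer samples, the cause was not tested. Depth limits the sparse clusters most, since the median gene-internal cluster held 1.52 CPM.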
